A study of Mus musculus with 6 samples.

Results

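The cells described here are macrophages that were captured with T cells sorted from a mouse glioma. They were chosen by RNA counts. A barcode, the tag of 1 droplet, needed at least 5000 gene UMIs (unique molecular identifiers, each standing for 1 captured molecule) and at most 10% mitochondrial UMIs. It also had to be absent from the T cell receptor contig tables of its day and to hold at least 3 UMIs of Gpnmb and Ms4a7 together, at least 3 of C1qa, at most 1 of the microglial genes P2ry12 and Tmem119 together and at most 1 of Cd3d, Cd3e and Cd3g together. This left 91 of 13545 barcodes that passed the UMI and mitochondrial limits, 70 of 8878 at day 13 and 21 of 4667 at day 19. The comparison group was formed by the other barcodes outside the contig tables with at most 1 CD3 UMI, 1063 at day 13 and 365 at day 19, called the other barcodes below. The macrophages made up 6.18% of these non-T barcodes at day 13 (exact binomial 95% interval 4.85 to 7.74) and 5.44% at day 19 (3.40 to 8.20).

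The 2 groups of the study were intracranial CT2A tumors at day 13 and at day 19. CT2A is a mouse glioma line, and all hosts were wild-type C57BL/6J mice aged 6 to 8 weeks. Day 13 used 16 mice, with 4 pooled per replicate, and day 19 used 4 mice. Cells of both days were sorted as CD3+ CD4+ or CD3+ CD8+, stained with 138 barcoded antibodies and 4 multiplexing tags, and run as 1 10x Genomics 5' capture per day. The sort was for T cells, so the number of macrophages describes these libraries and not the tumors. Day, capture and staining cannot be told apart. The captures were not repeated, values over multiplexing tags are given as ranges only, and no p-value is given. Intervals are exact 95% intervals for counted molecules and cover counting error only.

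Macrophages of the brain tumor come from blood monocytes and from microglia, the resident macrophages of the brain. Both engulf debris and dead cells, digest them in lysosomes, and handle the lipid and iron that this releases. Both can present peptides to CD4 T cells on MHC class II molecules, whose genes are induced by interferon gamma through the coactivator Ciita. The series title places antigen presentation by tumor macrophages beside T cell exhaustion.

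The macrophage barcodes had a median of 10382 gene UMIs at day 13 (range 5523 to 32114) and 9751 at day 19 (5530 to 22768). The other barcodes had medians of 9110 and 9580. Summed gene UMIs of the macrophages were 820081 at day 13 and 233569 at day 19, so day 19 carries the larger counting error. Median mitochondrial shares were 0.363% and 0.463%. By their most frequent multiplexing tag, the day-13 macrophages split into 9, 22, 19 and 20 barcodes, and those of day 19 into 1, 10, 6 and 4. In T cell barcodes the most frequent tag matched the number of the contig table in 99.5% of cases at day 13 and 90.2% at day 19, so tags and contig tables number the same cells. The labels give 4 mice per replicate at day 13 and 4 mice at day 19, and do not say which mice a tag stands for. Only 54.3% and 71.4% of the macrophages had at least 80% of their tag UMIs on 1 tag. Values over tags are given as ranges and are not replicate error.

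Between days, 62 barcode sequences were shared among barcodes with at least 5000 UMIs, and 0 of them were macrophages. At day 13, 5 of 70 macrophage barcodes also held at least 3 UMIs of markers of another cell type. Of these, 4 held the mature dendritic genes Fscn1 and Ccr7 (up to 115 UMIs in 1 barcode), 1 held the plasmacytoid genes Siglech and Klk1 (56 UMIs) and 1 held Cd8a and Cd8b1 (18 UMIs). At day 19, 1 of 21 held 12 UMIs of Fscn1 and Ccr7. No doublet caller was run. A further 353 barcodes at day 13 and 83 at day 19 met every condition except that they held at least 3 CD3 UMIs, and they are not described here.

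The label was checked against the 4 marker genes given with it. Ms4a7, a tetraspan membrane protein of macrophages, was at 1006 CPM (counts per 1000000 gene UMIs of the summed barcodes) at day 13 and 801 CPM at day 19, with a UMI in 70 of 70 and 21 of 21 barcodes. C1qa, a chain of complement C1q, was at 4108 and 6538 CPM, with a median of 37 and 52 UMIs per barcode. Both genes chose the barcodes, so these levels are a description. Gpnmb, a transmembrane glycoprotein of lipid-laden macrophages, was seen in 41 of 70 barcodes at day 13 and in 5 of 21 at day 19. At day 19, 95 of its 123 UMIs came from 1 barcode. The day-19 cells therefore passed the joint Gpnmb and Ms4a7 limit mostly through Ms4a7.

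Apoe, the lipid carrier apolipoprotein E, was the single marker that the selection did not use. It was seen in 69 of 70 macrophages at day 13 (lowest 0, median 136.5 and highest 1776 UMIs) and in 21 of 21 at day 19 (1, 117 and 685 UMIs). Its summed level was 19652 CPM at day 13 against 3073 CPM in the other barcodes (log2 ratio 2.68, interval 2.65 to 2.70). The day-19 levels were 13174 and 2241 CPM (log2 ratio 2.56, 2.50 to 2.62). After each barcode was thinned to 5000 UMIs, Apoe was detected in 97.1% and 100% of macrophages, 42.6% and 45.5% of the other barcodes, and 18.8% and 26.8% of 500 T cells per day. The T cell share serves as a background that can hold doublets as well as free RNA. At day 13 the 4 markers together had a median of 0 and a highest value of 77998 CPM per T cell barcode. Apoe stood above the T cell share in the macrophages on both days.

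**Figure D1:**
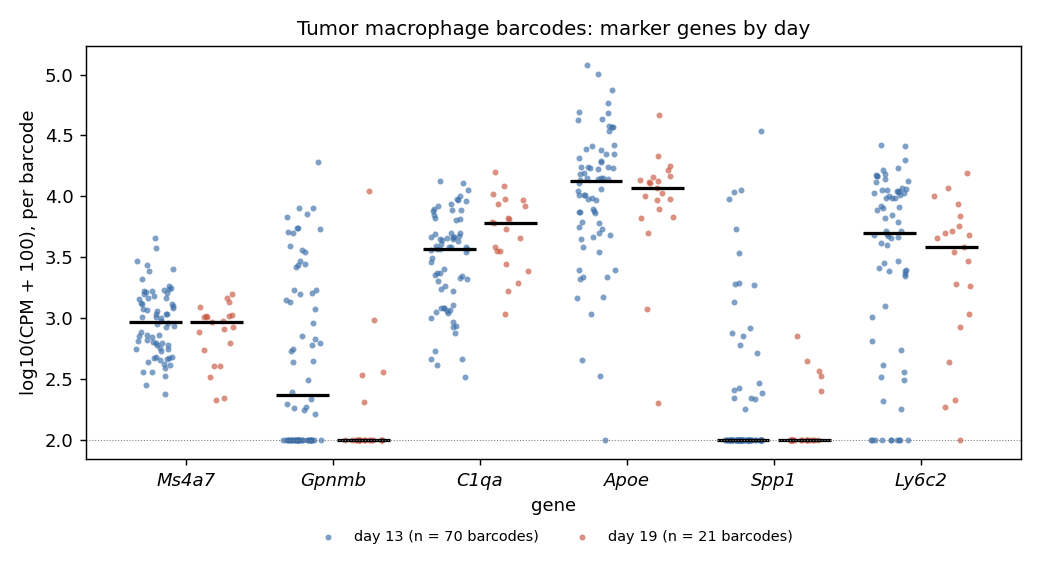
Marker genes in single macrophage barcodes. Each point is 1 barcode, the vertical axis is log10(CPM + 100), black bars are medians, and the dotted line marks 0 UMIs (n = 70 at day 13 and 21 at day 19). Apoe is at 0 in 1 day-13 barcode, Gpnmb is at 0 in most day-19 barcodes, and Spp1 is at 0 in most barcodes of both days.

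Many genes that mark other macrophages were low or at 0. The list of 8 microglial genes, of which 2 were limited by the selection, summed to 607 CPM at day 13 and 706 at day 19, against 1899 and 1839 CPM in the other barcodes, with a UMI in 66 of 70 and 21 of 21 macrophages. The medians per barcode ran the other way, at 485 and 532 CPM against 234 and 264 CPM in the other barcodes. Olfml3, one of these 8 genes, was at 124 and 141 CPM, in 43 and 13 macrophage barcodes. The microglial genes Gpr34 and Sparc had 1 and 5 UMIs at day 13 and 1 and 1 at day 19, and Sall1 had 0 and 1. Cd163, Marco, Folr2, Timd4, Lyve1, Cbr2, Retnla and Vsig4, genes of border and resident tissue macrophages, had 0 UMIs on both days, which allows levels of up to 3.66 CPM at day 13 and 12.8 CPM at day 19 by the limit of 3 counts. The list of 14 scavenger and border genes summed to 290 and 210 CPM, against 439 and 455 CPM in the other barcodes, with a UMI in 51 of 70 and 15 of 21 macrophages. Its medians per barcode were 143 and 112 CPM, against 110 and 92.7 CPM. Its most abundant genes were Chil3, a chitinase-like protein also made by monocytes, at 152 and 77.1 CPM, F13a1, coagulation factor XIII, at 51.2 and 34.3 CPM, and the scavenger receptor Stab1 at 39.0 and 47.1 CPM. The macrophages had 10 and 7 UMIs of Mrc1. Haemoglobin genes had 0 UMIs, and S100a8, a neutrophil gene, had 2 and 3.

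Monocyte genes gave a mixed picture. Ly6c2, the surface antigen of inflammatory monocytes, was at 6191 CPM at day 13 (60 of 70 barcodes) and 3982 CPM at day 19 (20 of 21). The other barcodes had 3267 and 2198 CPM, which gave log2 ratios of 0.92 (0.88 to 0.96) and 0.86 (0.76 to 0.96). A gate of monocyte barcodes (at least 3 Ly6c2 UMIs and at most 1 each of C1qa, of Gpnmb and Ms4a7, and of Cd209a, 389 and 85 barcodes) had 4783 and 4424 CPM. T cells carry Ly6c2 RNA too, at 2456 and 1434 CPM, so it sets these cells apart less than Apoe does. Plac8, another monocyte gene, was at 949 and 980 CPM in the macrophages against 3405 and 3443 CPM in the monocyte gate. Lyz2, lysozyme, was at 11249 and 7895 CPM, against 7196 and 7933 CPM in the monocyte gate. Ly6c2 RNA was thus found in barcodes that also held C1qa and Apoe, a combination that the monocyte gate leaves out by its definition. Its level went against those of both genes across the 70 day-13 macrophages, thinned to equal depth. Spearman's rho was -0.42 with C1qa and -0.48 with Apoe. Over the 21 macrophages of day 19, rho was -0.067 and -0.096.

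Near the limits of the selection, 6 day-13 macrophages held exactly 3 UMIs of Gpnmb and Ms4a7 and 5 barcodes just outside held 2. Apoe was at 4506 CPM in the former and 5006 CPM in the latter, and H2-Aa at 941 and 9528 CPM. At day 19, 4 macrophages with 3 such UMIs had 11219 CPM of Apoe and 2 barcodes with 2 had 50.9 CPM. At the microglial limit, 11 barcodes with exactly 1 UMI of P2ry12 and Tmem119 had 29011 CPM of Apoe, and 8 just outside with 2 had 21629 CPM. At day 19, the 6 inside this limit had 16335 CPM and the 5 outside 11942 CPM. Barcodes with 3 or more of these microglial UMIs that met every other condition had 18274 CPM of Apoe at day 13 (29 barcodes). At day 19 they had 11647 CPM (12 barcodes). At the C1qa limit at day 13, 3 macrophages with 3 C1qa UMIs had 17467 CPM of Apoe, and 6 barcodes outside with 2 had 23320 CPM. The Apoe levels on either side of the Gpnmb and Ms4a7 limit were thus nearer each other at day 13 than at day 19, over few barcodes.

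Against the other barcodes, the macrophages held more RNA of lysosomal, complement, iron and lipid genes on both days. Acp5, a phosphatase of lysosomes, was at 847 CPM at day 13 against 144, and at 771 CPM at day 19 against 96. These are log2 ratios of 2.56 (2.43 to 2.69) and 3.01 (2.74 to 3.27). Over all genes that reached 100 UMIs when both sums were added, 3.6% of 7698 were at least 2-fold higher and 10.1% at least 2-fold lower at day 13, and 4.52% and 13% of 4891 at day 19. The median log2 ratio of all these genes was -0.05 and -0.14. The other barcodes are a mixture of microglia, monocytes, dendritic cells and other cells, and the selection itself used this contrast, so counts of genes are a description of what these barcodes hold. The counts below refer to genes that reached 100 UMIs in both sums together.

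Of 17 macrophage core genes measured at day 13, 9 were at least 2-fold higher and 0 lower, with a median log2 ratio of 1.05. At day 19 it was 7 of 16 and 0, with a median of 0.91. Nr1h3, the oxysterol receptor LXR alpha that controls cholesterol export, was at 226 against 50 CPM and at 141 against 21 CPM. Its log2 ratios were 2.18 (1.93 to 2.42) and 2.75 (2.12 to 3.36). The gate set against these cells mattered. Against a gate of microglia-containing barcodes alone (at least 3 UMIs of P2ry12 and Tmem119 together and of C1qa, 168 and 65 barcodes), the median of the core list was -0.22 at day 13 and 0.13 at day 19.

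Of 16 lysosomal genes, 5 were at least 2-fold higher and 1 lower at day 13 (median 0.92), and 7 and 1 at day 19 (median 0.98). Ctsb, the protease cathepsin B, was at 4904 against 1861 CPM and at 4388 against 1717 CPM. Psap, the precursor of the saposins that help degrade sphingolipids, was at 7905 against 3316 and 7141 against 3151 CPM. Ctsd, cathepsin D, had ratios of opposite sign on the 2 days, 0.56 and -0.78. The microglia gate held 6048 and 8096 CPM of Ctsd, against 1877 and 985 CPM in the macrophages. Against that gate at day 19, the median of the lysosomal list was -0.23 and the Ctsb log2 ratio -0.35.

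Of the 19 function lists, complement genes had the highest median, 1.37 over 8 genes at day 13 (5 at least 2-fold higher, 2 lower) and 1.62 over 8 at day 19 (6 and 1). C1qb was at 5301 against 1300 CPM and at 7047 against 1978 CPM, and C1qc at 3159 against 915 and 4384 against 1479 CPM. The 3 chains assemble into 1 protein with C1qa, which chose the cells. The microglia gate had more, 7490 and 8991 CPM of C1qb, so the list's median against that gate was -0.14 at day 13. C3ar1, the receptor for the C3a fragment, was at 402 against 95 and 437 against 98 CPM, with log2 ratios of 2.08 (1.90 to 2.26) and 2.16 (1.83 to 2.48). Cfb, complement factor B of the alternative pathway, had log2 ratios of 1.24 and 1.72, and C3 of 1.50 and 1.66.

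Iron genes were high. Fth1, the heavy chain of ferritin, was at 31472 against 13094 CPM at day 13 and 28553 against 10038 CPM at day 19, and was seen in all 91 barcodes. Ftl1, the light chain, was at 12757 against 5056 and 8952 against 4157 CPM. Together with Blvrb, which acts in heme breakdown, 3 of 5 measured iron genes at day 13 and 3 of 4 at day 19 were at least 2-fold higher. Fcgr2b, the inhibitory receptor for IgG, was at 582 against 233 and 1023 against 368 CPM, and Fcgr4, an activating one, had log2 ratios of 1.35 and 1.43.

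Of 19 genes of phagocytosis and lipid handling, 7 were at least 2-fold higher at day 13 (median 0.65), and 6 of 17 at day 19 (median 0.86). None was at least 2-fold lower. Fabp5, a fatty acid binding protein, was at 1068 against 410 and 642 against 275 CPM. Without the barcode with the most Fabp5, its log2 ratio at day 19 was 0.59 in place of 1.23. Trem2, a lipid-sensing receptor, was at 247 and 188 CPM, against 203 and 232 in the other barcodes and 1112 and 1081 CPM in the microglia gate. Spp1, the secreted phosphoprotein osteopontin, was at 1404 against 300 CPM at day 13, but 519 of its 1151 UMIs were in 1 barcode. Its log2 ratio of 2.23 became 1.39 without that barcode, and at day 19 it was -0.83 (-1.65 to -0.12).

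The genes with the highest ratios at day 13 also included Clec4n (402 against 53 CPM), the fungal pattern receptor dectin-2, Pla2g7 (908 against 197 CPM), a phospholipase that cleaves platelet-activating factor, and Cxcl2. Cxcl2, a chemokine that attracts neutrophils, was at 1234 against 266 CPM and at 950 against 163 CPM, with log2 ratios of 2.22 (2.11 to 2.32) and 2.54 (2.32 to 2.77). It was present in 45 of 70 and 12 of 21 macrophages. At day 19, Rab20, Mmp14, Clec4a1, Apobec1 and Lst1 had log2 ratios between 2.09 and 2.32, and between 1.32 and 2.04 at day 13. Mmp14, a membrane-bound matrix protease, was seen in 67 of 70 and 21 of 21 barcodes. Gdf15 and Plau at day 13 rested in part on 1 barcode each. Their log2 ratios of 2.91 and 2.38 became 2.29 and 1.54 without it.

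Among the genes with the lowest ratios, several mark cell types that the gates found in the other barcodes, and others, such as Hspb1 (-4.91) and Arsb (-4.83) at day 13 and Kmo (-4.43) at day 19, are in no marker list used here. Cd209a, a lectin of type 2 dendritic cells, had 1 UMI at day 13 against 227 CPM in the other barcodes. Of the dendritic marker genes measured, 5 of 6 type 2 and 5 of 6 mature genes at day 13, and 4 of 4 and 5 of 5 at day 19, were at least 2-fold lower. The same held for 1 of 4 type 1 dendritic genes at day 13 (median -0.49) and 1 of 2 at day 19, and for 4 of 7 and 6 of 6 plasmacytoid genes. The lymphocyte granzyme Gzma had 2 UMIs at day 13 and 0 at day 19, and Gzmc had 0 and 0. Fscn1 had 119 UMIs at day 13 in 6 barcodes, and 0 at day 19. Leaving out its highest barcode moved its day-13 log2 ratio from -2.27 to -3.61. Crip1, a LIM domain protein, and Tmsb10 were low as well. Tmsb10, an actin-binding thymosin, was at 2177 against 6341 CPM and at 1070 against 6439 CPM. T cells had 9639 and 8630 CPM of it, and the microglia gate 1576 and 1292 CPM.

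**Figure D2:**
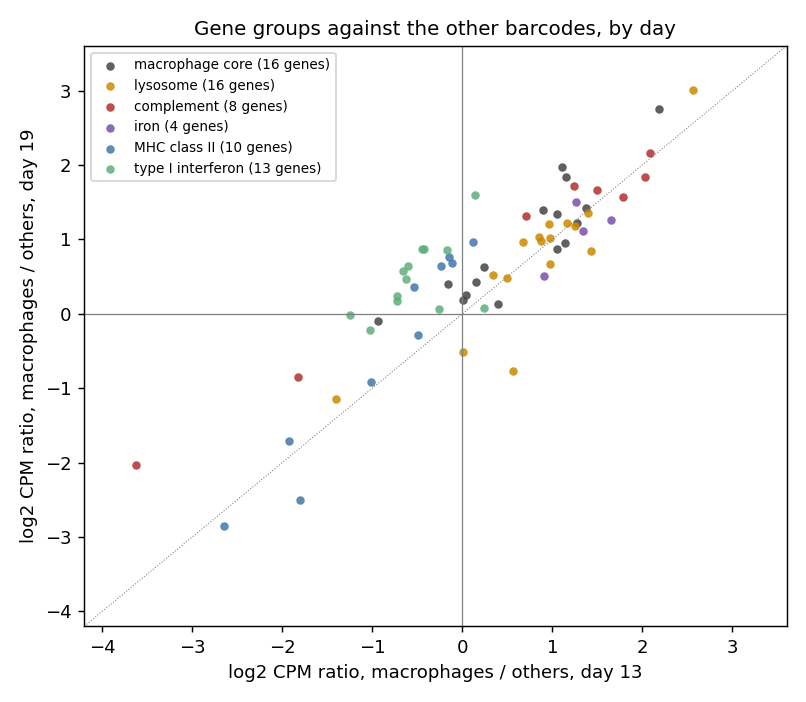
Gene groups in macrophage barcodes against the other barcodes. Each point is 1 gene that reached 100 summed UMIs on both days, the axes are log2 CPM ratios at day 13 and day 19, and the dotted diagonal marks equal ratios. Lysosomal, iron and complement genes lie mostly above 0 on both axes, type I interferon genes lie mostly left of 0 and above 0, and the 4 most abundant class II genes lie above the diagonal.

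Ligands and signals for T cells did not form a common pattern. Of 7 costimulatory ligands measured, 0 were at least 2-fold higher and 2 lower on each day (medians -0.73 and -0.40). Cd86, the ligand of CD28 and CTLA-4, was at 196 against 317 CPM at day 13 and 257 against 259 CPM at day 19. Cd274, which encodes PD-L1, was at 212 against 149 CPM and 158 against 133 CPM. Its log2 ratios were 0.51 (0.27 to 0.73) and 0.25 (-0.28 to 0.73), so the day-19 interval included 0. Sirpa, the receptor for CD47, had ratios of 0.88 and 1.18. Of all 11 checkpoint ligand genes measured at day 13, 7 were below 0 (median -0.15), with Tnfrsf14 at least 2-fold higher and Ceacam1 and Cd200r1 lower. At day 19, 2 of 6 were below 0 (median 0.13), and Sirpa alone was past 2-fold. All 15 MHC class I pathway genes lay within 2-fold on both days, with medians of -0.07 and 0.02.

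Il1b, the cytokine interleukin 1 beta, was at 1484 against 1180 CPM at day 13 and 2316 against 1257 CPM at day 19. Of 13 chemokines at day 13, 1 was at least 2-fold higher and 6 lower (median -0.33), and 2 and 2 of 13 at day 19 (median -0.02). Cxcl10, which attracts CXCR3-bearing T cells, was at 273 against 1460 CPM and 432 against 765 CPM. Cxcl9, its relative, was at 199 against 472 CPM and 518 against 528 CPM. Cxcl16, the ligand of CXCR6, was at 1023 against 580 and 1075 against 442 CPM. Of the hypoxia and glycolysis genes, 13 of 15 had ratios above 0 on both days, with medians of 0.33 and 0.31. Vegfa, the vascular growth factor, led these at day 13 at 200 against 80 CPM.

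Type I interferon genes differed between the days in their place against the other barcodes. At day 13, 2 of 13 had ratios above 0 (median -0.61), and at day 19, 11 of 13 (median 0.47). In the macrophages themselves the levels were close on both days. Isg15, a ubiquitin-like antiviral protein, was at 1877 CPM at day 13 and 1871 at day 19, while the other barcodes went from 3098 to 1591 CPM. T cells had 1382 and 616 CPM, and the monocyte gate 4277 and 2439 CPM. Irf7, the master regulator of the interferon response, was at 2052 and 2616 CPM against 2766 and 1425. Of the 11 interferon genes measured between days in the macrophages, 5 had ratios above 0 and 0 were past 2-fold. Of the genes of interferon gamma signalling and its GTPases, 1 of 14 had a ratio above 0 at day 13 (median -0.61), with Gbp2, Gbp5 and Cxcl9 at least 2-fold lower, and 5 of 13 at day 19 (median -0.04), with Socs1 higher and Gbp5 lower. Between days in the macrophages, 7 of 9 were above 0 (median 0.58), and Cxcl9 alone was past 2-fold. Whether the lower level of Isg15 in the other barcodes came from their makeup or from each cell was not tested.

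Proliferation genes were scarce. Mki67, a cycling marker, had 12 and 5 UMIs. Of 9 cell cycle genes measured at day 13, 0 were at least 2-fold higher and 3 lower, and 0 and 2 of 4 at day 19. Of 13 immediate early and stress genes, 4 were at least 2-fold lower at day 13 (median -0.86), Egr1, Ier2, Nr4a1 and the heat shock gene Hspa1b. Egr1 was at 111 against 699 CPM. At day 19, 1 was lower and 1 higher (median -0.09), and Egr1 was at 197 against 610 CPM. Fos, a subunit of the AP-1 factor, was at 3575 against 3391 CPM and 3905 against 2633 CPM, with a UMI in all 91 barcodes.

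Within the macrophages, MHC class II had the highest median log2 ratio between days of the 19 function lists. Class II molecules are pairs of an alpha and a beta chain. H2-Aa and H2-Ab1 encode I-A, H2-Eb1 encodes the beta chain of I-E, Cd74 encodes the invariant chain that guards the groove, and H2-DMa and H2-DMb1 encode the exchange factor that loads peptides. Their promoters are known for a shared set of short elements, among them the Y box that contains GATTGG. The stretches of 150 bases before the annotated start are shown for 3 genes that were higher at day 19 and hold the motif there, with GATTGG and its reverse complement CCAATC in capitals (RefSeq, GRCm38.p6, 5′ to 3′ on the gene's strand).
H2-Aa, chr17:34287824-34287973, minus strand: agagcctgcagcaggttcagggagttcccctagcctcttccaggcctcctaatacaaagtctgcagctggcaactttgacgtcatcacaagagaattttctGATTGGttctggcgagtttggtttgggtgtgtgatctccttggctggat
H2-Eb1, chr17:34305717-34305866, plus strand: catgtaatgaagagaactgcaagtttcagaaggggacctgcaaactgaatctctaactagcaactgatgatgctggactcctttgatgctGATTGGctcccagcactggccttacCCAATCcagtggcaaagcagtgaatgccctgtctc
H2-DMb1, chr17:34153041-34153190, plus strand: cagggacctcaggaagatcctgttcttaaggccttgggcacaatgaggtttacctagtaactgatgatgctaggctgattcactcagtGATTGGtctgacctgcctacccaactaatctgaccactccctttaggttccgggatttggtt
GATTGG begins 49 bases before the start in H2-Aa, 60 in H2-Eb1 and 62 in H2-DMb1, and H2-Eb1 also has CCAATC 35 bases before it. Within 250 bases before the start, on either strand, the motif was found in 8 of the 9 entries of the list's genes on chromosome 17 and in 4783 of 32851 entries overall (14.6%). H2-DMa, also higher at day 19, has 2 of these entries. The first lacks the motif, and the second has it 199 bases before the start, outside the 150 bases. These entries cover 8 of the 11 list genes, without H2-Ab1, Cd74 and Ciita. A match describes letters in this window and not binding.

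H2-Aa had a UMI in 52 of 70 macrophages at day 13 (lowest 0, median 37 and highest 342 UMIs) and in 21 of 21 at day 19 (9, 109 and 202 UMIs). The ranges overlap, and no day-19 barcode was at 0. Its level was 5221 CPM at day 13 and 9822 CPM at day 19 (log2 ratio 0.91, 0.84 to 0.99). After thinning to 5000 UMIs, H2-Aa was detected in 74.3% (62.4 to 84.0) of macrophages at day 13 and 100% (83.9 to 100) at day 19. The other barcodes were at 66.1% and 74.2%, and T cells, which serve as background, at 17.6% and 27.6%.

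Over all 1539 genes measured between days in the macrophages, 0.78% were at least 2-fold higher at day 19 and 1.88% at least 2-fold lower, and the median log2 ratio was -0.02. Of the 11 class II genes, 6 reached 100 UMIs, all 6 were above 0, 1 was at least 2-fold higher, and their median was 0.92. H2-Ab1 went from 5175 to 9997 CPM (log2 ratio 0.95, 0.88 to 1.02), and H2-Eb1 from 4120 to 7826 CPM. Cd74 went from 15655 to 28047 CPM, with a ratio of 0.84 (0.80 to 0.88). H2-DMb1 had a ratio of 1.02 (0.85 to 1.14 with 1 tag left out at a time) and H2-DMa of 0.55. Ciita was at 37 and 39 CPM and did not reach the count limit.

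The other barcodes differed less between days. Their H2-Aa level was 5658 CPM at day 13 and 6132 CPM at day 19, the monocyte gate had 6037 and 5928 CPM, the microglia gate 1812 and 2283 CPM, and a gate of type 2 dendritic cells (at least 3 Cd209a UMIs and at most 1 of C1qa, 146 and 54 barcodes) 7672 and 7554 CPM. Against the other barcodes, the macrophages' H2-Aa ratio was -0.12 (-0.16 to -0.07) at day 13 and 0.68 (0.62 to 0.74) at day 19. For Cd74 these ratios were -0.24 and 0.65. The low-abundance class II genes H2-DMb2, H2-Oa and H2-Ob were at least 2-fold lower than in the other barcodes on both days.

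The step between days was smaller than the spread over tags at day 13. Over multiplexing tags, H2-Aa ranged from 3838 to 9367 CPM at day 13, where the highest was the tag with 9 barcodes, and from 8447 to 11732 CPM at day 19 over the 3 tags with at least 4 barcodes. Cd74 ranged from 11308 to 25853 CPM and from 23304 to 36290 CPM. The ranges overlap for both genes. Leaving out 1 tag at a time gave H2-Aa ratios from 0.74 to 1.06. With barcodes kept only where at least 80% of the tag UMIs were on 1 tag, 38 remained at day 13, the H2-Aa ratio was 1.51 and the class II median was 1.42. Leaving out barcodes with markers of another cell type gave an H2-Aa ratio of 0.89. Whether the makeup of the tags had a part in the difference between days was not tested.

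**Figure D3:**
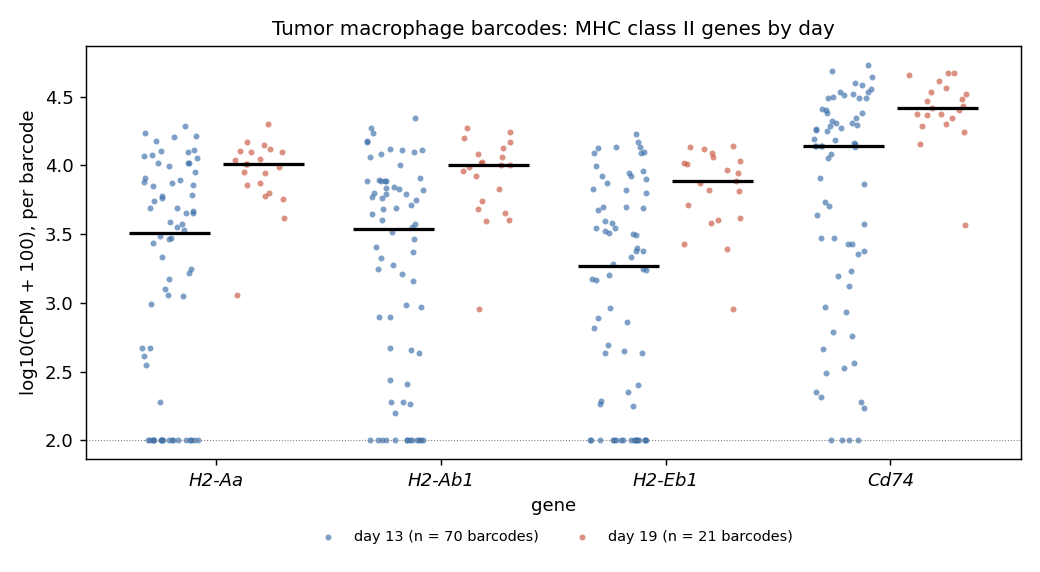
Class II genes in single macrophage barcodes. Each point is 1 barcode, the vertical axis is log10(CPM + 100), black bars are medians, and the dotted line marks 0 UMIs (n = 70 at day 13 and 21 at day 19). At day 13 the points reach from 0 to the highest levels, with 18 barcodes at 0 for H2-Aa, and at day 19 no barcode is at 0 for any of the 4 genes.

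Among the day-13 macrophages, class II genes varied together. Spearman's rho of H2-Aa with Cd74 over the 70 barcodes, thinned to equal depth, was 0.96, and 0.84 over the 21 of day 19. These barcodes share a library. The 18 day-13 macrophages without an H2-Aa UMI had a median of 9329 gene UMIs, and the 52 with one had 10654.5. They came from all 4 tags, with 1, 6, 3 and 8 barcodes.

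The IA/IE antibody tag, counted in a separate library and not used in the selection, followed the RNA. IA/IE binds the class II proteins I-A and I-E. The 18 barcodes without H2-Aa RNA had a median of 12.3 tag UMIs per 10000 antibody UMIs, and the 52 with it had 118. Empty barcodes, with under 100 gene UMIs, had 9.54. Spearman's rho between the summed class II RNA and the tag was 0.83 over 70 barcodes at day 13 and 0.36 over 21 at day 19. Between class II RNA and Ly6c2, rho was -0.01 and -0.02.

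**Figure D4:**
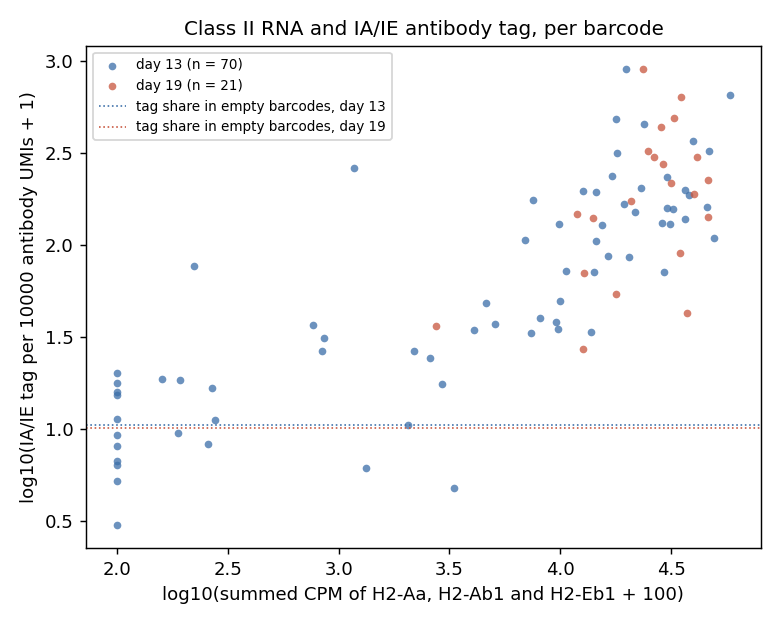
Class II RNA and the IA/IE antibody tag in single macrophage barcodes. The horizontal axis is log10 of the summed CPM of H2-Aa, H2-Ab1 and H2-Eb1 plus 100, the vertical axis log10 of tag UMIs per 10000 antibody UMIs plus 1, and dotted lines mark empty barcodes. Day-13 barcodes run from the level of empty barcodes at 0 RNA to the upper right, and the day-19 barcodes lie in the upper right.

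Other genes that were higher at day 19 were Cxcl9 (log2 ratio 1.38, 1.03 to 1.73), the nuclear receptor Nr4a1 (1.12), the inhibitory lectin Cd72 (0.97), Marcks (0.90) and Fcgr2b (0.81). Cxcl9 was present in 22 of 70 and 10 of 21 barcodes, with highest values of 61 and 48 UMIs, and ranged over tags from 60 to 522 CPM at day 13 and from 169 to 1075 CPM at day 19. Leaving out 1 tag at a time gave ratios from 0.85 to 2.35, so its size depended on single tags. Fcgr2b ranged from 487 to 702 CPM over the day-13 tags and from 845 to 1097 CPM over the day-19 tags, and these ranges did not overlap. C1qb and C1qc had ratios of 0.41 and 0.47, and Il1b of 0.64. Without tag 3 of day 19, the Il1b ratio was 0.018 and that of Nr4a1 0.62.

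Lower at day 19 were Spp1, the transcription factor Bhlhe40, Crip1, the lectin Clec4e, the peroxidase Prdx1, Tmsb10 and the chemokine Ccl5. Bhlhe40, a circadian repressor active in lymphoid and myeloid cells, had a UMI in 54 of 70 macrophages at day 13 and in 9 of 21 at day 19. Its level was 300 and 60 CPM (log2 ratio -2.32, -3.22 to -1.55), and the tag ranges of 232 to 344 and 38 to 70 CPM did not overlap. In the other barcodes it was at 661 and 496 CPM. After thinning, it was detected in 55.7% and 23.8% of macrophages and in 54.8% and 61.4% of T cells, so the day-13 share lies at the level of T cells and the day-19 share below it. Tmsb10 ranged from 2020 to 2731 CPM and from 710 to 1335 CPM over tags, and its ratio was -1.02. The Clec4e ratio ran from -2.85 without tag 3 of day 19 to -0.92 without tag 4 of day 13. The ratios of Prdx1, Tmsb10 and Ccl5 fell short of 2-fold without 1 or another tag, at up to -0.83, -0.89 and -0.71. The Crip1 ratio of -1.63 became -0.81 when barcodes with markers of another cell type were left out.

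Spp1 was at 1404 CPM at day 13, in 23 of 70 barcodes, and at 69 CPM at day 19, in 5 of 21. Tags of day 13 ranged from 132 to 2643 CPM, and those of day 19 from 38 to 84 CPM. Its log2 ratio between days was -4.36 (-5.17 to -3.65), -4.01 without the highest barcode and -3.55 without tag 4 of day 13. After thinning, the shares of macrophages with Spp1 were 27.1% and 19.0%, so the high day-13 sum came from a few barcodes with very many UMIs. Apoe had a ratio of -0.58 (-0.63 to -0.52), with tag ranges of 12449 to 23448 and 11540 to 16122 CPM that overlap. Gpnmb had a ratio of -1.56, which became -3.30 without the highest barcode of each day and -5.06 without tag 2 of day 19. Hmox1 had a ratio of -1.10 (-1.68 to -0.92 with 1 tag left out), Ctsd of -0.93, and Ccl5 of -1.02. T cells also held Ccl5, at 4846 CPM at day 13 and 2175 at day 19, and whether free T cell RNA had a part in its lower macrophage level was not tested.

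Across the 70 day-13 macrophages, Apoe, Trem2, Spp1 and Fabp5, genes that the selection did not use, went with one another and against Isg15. Spearman's rho between them ran from 0.34 (Trem2 and Fabp5) to 0.60 (Spp1 and Trem2), and with Isg15 from -0.36 (Fabp5) to -0.61 (Apoe). Over the 21 barcodes of day 19, Apoe and Fabp5 had a rho of 0.53, Trem2 and Fabp5 of 0.39 and Trem2 and Apoe of 0.35. With Isg15, Apoe had -0.40 and Trem2 -0.31, but Fabp5 had -0.019, so the relation to Isg15 was not seen for each gene on that day. Cxcl9, an interferon gamma target, had a rho between -0.15 (Fabp5) and -0.36 (Trem2) with these genes at day 13, and no list of interferon genes was correlated. The relation to Isg15 at day 13 was not particular to these genes. Isg15 had a rho of -0.40 with Lyz2, and of -0.43 and -0.31 with the selection genes Gpnmb and C1qa. Lyz2 went with Apoe (0.38), and Gpnmb went with Fabp5 (0.73). Ly6c2 went with Isg15 (0.54) and against Apoe (-0.48) at day 13, with 0.21 and -0.096 at day 19. All values share 1 library per day, and the counts of 5000 UMIs per barcode are fixed, so a gene that takes more of them leaves fewer for the rest.

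The antibody tags were not used in the selection. Of 138 antibody tags, 10 at day 13 and 12 at day 19 stood at least 2-fold above empty barcodes in the macrophages. The 12 include IgD, whose day-19 level rests on 1 barcode. Ly6C, the protein of Ly6c2 and its neighbour Ly6c1, was at 113.2 UMIs per 10000 antibody UMIs at day 13 (61.5 in the other barcodes, 50.0 in T cells, 23.7 in empty barcodes) and at 137.3 at day 19 (58.6, 51.7 and 19.8). Per barcode it ran from 15.8 over a median of 88.0 to 385 at day 13, and from 19.9 over 84.8 to 340 at day 19. Its log2 ratios against the other barcodes were 0.88 (0.83 to 0.93) and 1.23 (1.12 to 1.34). The tag followed Ly6c2 RNA across barcodes, with rho of 0.75 and 0.80.

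CD11b, the integrin of myeloid cells, was at 85.6 and 125.4 per 10000, against 48.0 and 63.0 in the other barcodes. IA/IE was at 120.5 and 236.9, against 94.9 and 102.3, with log2 ratios of 0.34 and 1.21. The day-13 value was not stable. It was -0.30 among barcodes with 1 clear multiplexing tag and -0.068 per gene UMI in place of per antibody UMI. Within the macrophages, IA/IE had a log2 ratio between days of 0.97 (0.88 to 1.06), and of 0.30 per gene UMI. The medians of antibody UMIs per barcode were 4503.5 at day 13 and 2335 at day 19. CD274, the PD-L1 protein, was at 27.4 and 41.8, against 16.8 and 18.9, and CD44, a hyaluronan receptor, at 42.9 and 59.7, against 27.5 and 33.4. At least 2-fold higher than in the other barcodes were 0 of 138 tags (0%) at day 13 and 5 (3.62%) at day 19, and 2 (1.45%) and 6 (4.35%) at least 2-fold lower. The 5 include IgD. Without the 1 barcode that carried it the day-19 counts were 6 higher and 5 lower, and IgD was at 11.9 against 7.11 per 10000. Per gene UMI, IgD alone was at least 2-fold higher at day 19, with Ly6C at 0.95, Ly6A at 0.94, IA/IE at 0.93 and CD274 at 0.87, and the median of all tags moved from 0.04 to -0.24.

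The lowest tags against the other barcodes were CD93 (log2 ratio -1.86) and CD1d (-1.17) at day 13, followed by CD326, CD83 and CD172a within 2-fold. At day 19 they were Gr1 (-2.21), CD1d (-1.60), CD38 (-1.57), CD252 (-1.32) and TCRB (-1.14). Gr1, an antibody against Ly6G that also binds Ly6C, was at 90.6 per 10000 in the day-19 macrophages and 419.5 in the other barcodes, and their medians per barcode were 15.9 and 18.7. Its direction at day 19 was thus opposite to that of the Ly6C tag. Barcodes with over 15000 antibody UMIs carried most of these differences. Without them, 0 tags were at least 2-fold higher and 0 lower at day 13, and 2 (Ly6C and IgD) and 1 (CD1d, at -1.04) at day 19, and the day-19 ratios were -0.17 for Gr1 and 0.63 for CD38.

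Between days, 2 of 138 tags were at least 2-fold higher in the macrophages (1.45%) and 0 lower (0%). The first was Ly6A, or Sca-1, at 22.2 and 55.0 per 10000, with a log2 ratio of 1.31 (1.11 to 1.51). Per gene UMI its ratio was 0.63, under 2-fold, and the median of all tags moved from -0.09 to -0.77. The second, IgD, rested on 1 day-19 barcode that held 2520 of its UMIs while the next highest held 7. That barcode had 149 C1qa UMIs and 0 of the B cell genes Ighd, Ighm, Cd79a and Cd79b, and without it IgD was at 11.9 against 8.8 at day 13.

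Many tags carried little information here. In the macrophages, 119 of 138 tags at day 13 and 71 at day 19 lay near the level of empty barcodes. The macrophage proteins F4/80, CD64, CX3CR1 and CD206 were at the level of empty barcodes, as were the isotype controls. F4/80 was at 30.5 and 30.2 per 10000 in the macrophages and 33.0 and 33.6 in empty barcodes. CD3 was at 82.2 and 82.5 in the macrophages, 89.4 and 83.0 in T cells, and 88.2 and 87.7 in empty barcodes, so it did not mark T cells either. The tags therefore cannot say why CD3-negative barcodes were present after a CD3 sort.

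**Figure D5:**
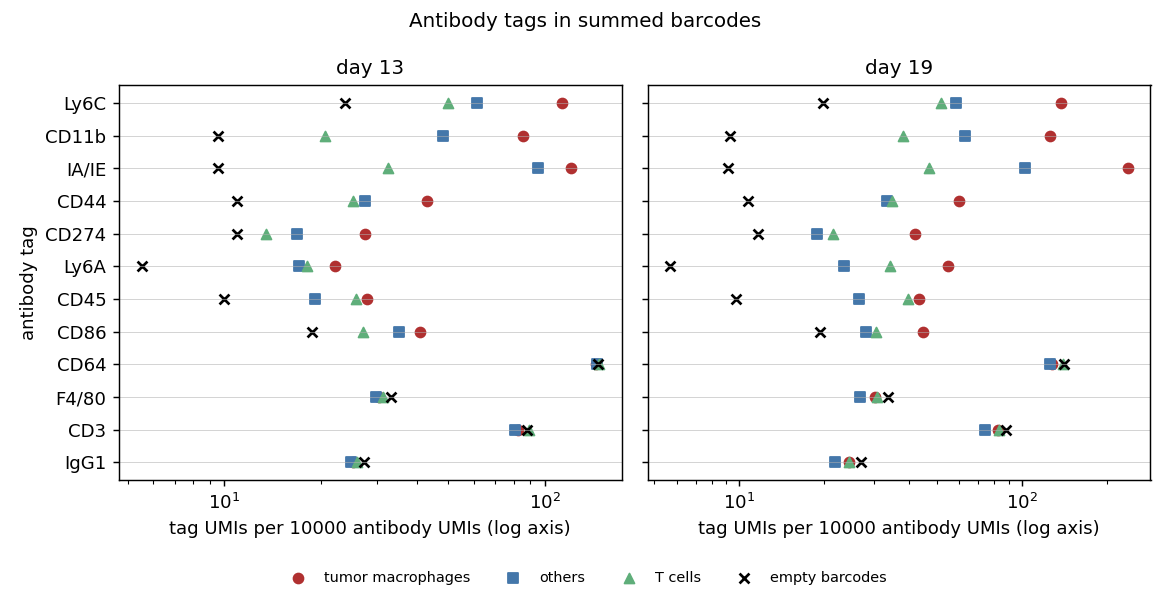
Antibody tags in summed barcodes. Points give tag UMIs per 10000 antibody UMIs on a log axis for the macrophages, the other barcodes, T cells and empty barcodes on each day. Ly6C, CD11b, IA/IE, CD44 and CD274 lie above the other groups in the macrophages, and CD64, F4/80, CD3 and the isotype control IgG1 lie together in all groups.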

How the data were processed

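Deposited gene, antibody and multiplexing tag values are raw UMI counts per barcode, with no normalization, in unfiltered matrices of 736611 (day 13) and 735849 (day 19) barcodes and 32285 genes. Per the file headers, Cell Ranger wrote them. The submitters' processing notes name Cell Ranger 4.0.0, STAR 2.7.5c, Seurat, bcl2fastq 2.20, R 4.1.2 and mm10, with no role given. The 4 deposited contig tables per day (8359 and 4295 barcodes) give receptor contig counts, used only to tell which barcodes lay outside them. Gene symbols are those the authors paired with Ensembl IDs. The matrices held 144565182 and 81224453 gene UMIs.

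Counts of a group's barcodes were summed and divided by all its gene UMIs (CPM). Log2 ratios of CPM carry exact 95% intervals under Poisson counting. Where a sum was 0, 3 counts stood in for it, and pairs of sums with 3 or fewer counts each got no ratio. Genes needed 100 UMIs in both sums together, and an absolute log2 ratio of 1 was the threshold. With 1 capture per day there is no test. For shares, barcodes were thinned to 5000 UMIs (seed 1). T cells were barcodes inside the contig tables with at least 3 CD3 UMIs, of which 500 per day were thinned. The gates are rules and not clusters, and no doublet caller was run, so doublets remain. Barcodes with markers of another cell type were left out as an added alternative.

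Named genes were, per list, the 2 with the most UMIs in the macrophages and up to 2 with the largest ratios, the 10 highest and 10 lowest genes of each comparison with at least 200 UMIs in both sums, a fixed set of 24 genes, the 8 selection genes and the 4 markers. The ranks skipped antigen receptor segments, genes of ribosomes and mitochondria, Gm and Rik models, sex-linked Xist and Tsix, and genes on Y. For tags, the rule took the 10 highest, the 5 lowest and the isotype controls. Other genes named, such as Plac8, Ctsd and Cxcl16, come from the lists and were picked after their values were seen. Some genes that the rule names are not reported here, and list counts and medians include them. The members, gene lists and rules were chosen with earlier results of these data known. In counts simulated with 200 changed genes, 2-fold changes passed the threshold for 48.5% (day 13), 46% (day 19) and 51.5% (between days) of genes, and 3-fold ones for 96.5%, 93.5% and 98%. Unchanged genes passed it in 1.71%, 4.58% and 0.224% of cases. Python 3.11.15, numpy 2.4.6, pandas 2.3.3, scipy 1.17.1, matplotlib 3.10.9, R 4.3.3 and edgeR 4.0.16 (TMM factors, an alternative) were used. Promoter sequences came from a RefSeq table on GRCm38.p6.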

Additional observations from a re-analysis of the deposited data

How the results depend on the processing

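No paired analysis was possible because the labels give 1 sample per day and the results come from no test. Taken within multiplexing tags and combined over them, the counts against the other barcodes were 272 higher and 769 lower at day 13 and 208 and 626 at day 19, and the macrophage core medians 1.06 and 0.83. Counts of genes past 2-fold rose with weaker filters, by construction: with at least 20 UMIs they were 608 higher and 1238 lower (day 13), 664 and 1203 (day 19) and 167 and 366 (between days), and with at least 1 UMI 993 and 1238, 1118 and 1203, and 661 and 703. The main counts were 277 and 780, 221 and 638, and 12 and 29. TMM factors gave 7 higher between days, 15.9% of the called genes against 29.3%, and leaving out macrophages with markers of another cell type gave 16 lower; the causes were not tested. Leaving out 1 multiplexing tag at a time gave 7 to 16 higher and 18 to 59 lower between days, with 18 lower without tag 2 or tag 4 of day 13, 7 higher without tag 4 of day 13, 59 lower without tag 2 of day 19 and 48 without its tag 3.

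The comparison group decided several results. Against the microglia gate, 162 genes were higher and 407 lower at day 13, and 112 and 162 at day 19. The macrophage core median was -0.22 and 0.13, the complement median -0.14 at day 13 and the lysosome median -0.23 at day 19. These genes turned sign at day 13: C1qb (-0.50), C1qc (-0.78), Ctsd (-1.69), Crip1 (0.18), Tmsb10 (0.47), Plac8 (0.34), Bhlhe40 (0.92), H2-Aa (1.53), Cd74 (1.35), Isg15 (0.35) and Irf7 (0.76). At day 19 they were C1qb (-0.35), C1qc (-0.68), Ctsb (-0.35), Plac8 (1.35), Cxcl10 (0.34) and Cxcl9 (1.30). Against the monocyte gate, 476 were lower at day 13 and 88 higher and 156 lower at day 19. Sparc (0.74) and H2-Ab1 (-0.020) turned sign at day 13, and Lyz2 (-0.0069), Spp1 (1.79), Ly6c2 (-0.15), Isg15 (-0.38) and Ctsd (2.32) at day 19. Against the type 2 dendritic gate, 418 were lower at day 13 and 127 higher and 191 lower at day 19, and the core median was 1.74 and 1.50. Sparc (2.16), Fscn1 (4.73) and H2-Ab1 (-0.22) turned sign at day 13, and Spp1 (3.67), Cxcl9 (0.56), Isg15 (-0.094) and Ctsd (4.71) at day 19.

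With a limit of 6 UMIs on both marker conditions, the share at day 13 was 4.59%. With 1 clear multiplexing tag, 38 macrophages remained at day 13 and the class II median between days was 1.42. For the antibody tags, log2 ratios of Ly6C against the other barcodes at day 13 were 0.83 with 0 CD3 UMIs, 0.69 with 6 marker UMIs, 0.82 with 1 clear tag, 0.47 per gene UMI and 0.79 without barcodes of over 15000 antibody UMIs. At day 19 they were 0.92 with at least 8000 gene UMIs, 1.11 with 6 marker UMIs, 0.82 with 0 microglial UMIs, 0.95 per gene UMI and 1.00 without the over-15000 barcodes. Those of IA/IE at day 13 were 0.42, 0.53, 0.44 with 0 microglial UMIs, -0.30, -0.068 and 0.25, in the same order. At day 19 they were 0.92 with 8000 gene UMIs, 1.36 with 6 marker UMIs, 1.05 with 1 clear tag, 0.93 per gene UMI and 0.97 without the over-15000 barcodes. Between days, Ly6C gave 0.12 with 8000 gene UMIs, -0.042 with 0 microglial UMIs, 0.46 with 1 clear tag and -0.40 per gene UMI, and IA/IE gave 0.87, 0.85 with 0 CD3 UMIs, 1.58 with 1 clear tag and 0.30 per gene UMI.

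Over the alternatives, values of single named genes against the other barcodes kept their place in 517 of 777 cases at day 13 and 565 of 774 at day 19, moved in 251 and 206, and went from past 2-fold to the opposite sign in 9 and 3. Changes of sign of any size numbered 18 on each day. Those not against a gate were H2-Ab1 at day 13 (-0.052 with 8000 gene UMIs, -0.39 with 1 clear tag) and Cxcl9 at day 19 (0.024 with 3000 gene UMIs, 0.34 with 6 marker UMIs, 0.30 with 0 microglial UMIs). Per gene UMI, the Ly6A tag at day 13 (-0.039) and CD11b (-0.13), CD274 (-0.070) and CD44 (-0.20) between days turned sign. Tags per gene UMI gave 5 lower at day 13, 1 higher at day 19, and 1 higher and 10 lower between days, against 2, 5, 2 and 0, and leaving out the barcode with the most IgD gave 1 lower between days. Without the over-15000 barcodes, 0 were lower at day 13, and 2 higher and 1 lower at day 19. Between days, 570 of 690 kept their place, 120 moved and 0 turned sign. The day-19 sum of 233569 UMIs sets the counting error of every comparison with that day. The alternatives that left out the highest barcode of a gene or tag, barcodes with over 15000 antibody UMIs or barcodes with markers of another cell type, and the one within multiplexing tags, were chosen after seeing the data.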
